A study of Caenorhabditis elegans with 8 samples.

Results

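The *flp* genes of *C. elegans* encode FMRFamide-like peptides, and their messages were followed here in whole animals of an *smrd-1* deletion strain and of wild type. All genes whose name in the deposited table of names begins with flp- were taken, which gave 30 genes among 20536 named genes. All 30 passed the filter on low counts, among 16808 genes tested. A further annotated gene, *flp-23*, is outside that table and was not a member. It had counts of 6, 0, 0 and 2 in smrd1Null replicates 1 to 4 and of 0 in each of the 4 Control libraries. The table of names held as many genes, 20536, as had at least 10 counts in total, and *flp-23* had fewer. Membership may thus already have depended on counts, which was not tested.

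Each *flp* gene encodes a precursor protein that holds one or several short peptides with a shared C-terminal motif. The proprotein convertase EGL-3 cuts the precursor, the carboxypeptidase EGL-21 trims the fragments, and amidating enzymes finish the peptide ends. The peptides are packed into dense core vesicles, released with the help of UNC-31 (CAPS) and bind G protein-coupled receptors on other cells. In the worm they are made mostly by neurons and act in locomotion, egg laying, feeding, mating and sleep.

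The smrd1Null group held 4 libraries of polyadenylated RNA from whole bodies of animals with the CRISPR-Cas9 deletion *smrd-1* Δ#1 (allele *bk3122*, strain CK3122), which lacks the first exons of the gene and with them much of its helicase region. The Control group held 4 libraries of whole N2 animals, the non-Tg wild type. Neither group carried a tau transgene, and both were grown on plates with OP50 bacteria. The extraction protocol gives the L4 stage and the series design text adults, and *smrd-1* encodes the worm counterpart of the chromatin remodeler SMARCAD1. Total counts were 74704022 to 78008833 per library, and nothing in the sources used here says that the libraries came from separate cultures, so p-values measure only the spread between these samples. Replicates 1 and 2 stood apart from replicates 3 and 4 in both groups, a division that was read from the values and that the labels do not explain. Across genes, deviations from the group means had correlations of 0.221 to 0.516 between smrd1Null and Control libraries on the same side of this division and of -0.565 to -0.188 between libraries on opposite sides.

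The deleted gene went against its label. *smrd-1* had 6369, 6252, 6874 and 6330 counts in smrd1Null replicates 1 to 4, against 3638, 2997, 3876 and 4073 counts in Control replicates 1 to 4. Its level was 85.1 ± 4.35 CPM in smrd1Null and 47.9 ± 3.93 CPM in Control (SD, n = 4 each), where CPM is the usual count relative to the library total, here scaled by TMM. Its log2 fold change was 0.83 with a standard error of 0.0813 (adjusted p = 0.0089, edgeR), and the exact two-sided permutation test over 70 arrangements gave p = 0.0286, the smallest it can give. The table holds 1 count for the whole gene, so reads from the exons outside the deletion are part of it and the deletion itself could not be checked. Each direction below is therefore that of the libraries labelled smrd1Null over the libraries labelled Control.

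Most *flp* messages were a little lower in the libraries labelled smrd1Null, and no single gene passed the test. A log2 fold change below 0 was found in 28 of 30 *flp* genes, where 51.4% of all genes tested were below 0. With the libraries scaled on a list of pan-neuronal genes instead, 24 of 30 were below 0, against 33.8% of all genes. That scaling equalized the summed counts of the list, not each of its genes, and moved the median of all genes tested to 0.11. With TMM scaling the genes of the list had a median log2 fold change of -0.19. Whether the *flp* genes were lower than the genes of that list was not tested. With TMM scaling, the median log2 fold change of the 30 *flp* genes was -0.22, with quartiles at -0.31 and -0.13. That of all genes tested was -0.01, with quartiles at -0.19 and 0.19. *flp-20* had the lowest value, -0.61, and *flp-28* the highest, 0.12.

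The edgeR quasi-likelihood test called 0 of 30 *flp* genes at an adjusted p of at most 0.05, against 0.155% of all genes tested (26 genes, 15 higher and 11 lower). The smallest adjusted p of a *flp* gene was 0.456. At an unadjusted p under 0.05 there were 3 *flp* genes, *flp-15*, *flp-20* and *flp-9*, all lower, against 7.74% of all genes in either direction and 3.84% lower. DESeq2 also called 0 of 30, against 1.34% of all genes it tested, with 7 *flp* genes at an unadjusted p under 0.05 (9.59% of all genes) and a smallest adjusted p of 0.0819. A block by replicate number in edgeR gave 0 of 30 called, against 0.155% of all genes, 27 of 30 were below 0 (50.6% of all genes), and 8 had an unadjusted p under 0.05 (23.0% of all genes). Of the 95% intervals of the log2 fold changes, 29 lay wholly between -1 and 1. The exception was *flp-20*, whose interval began at -1.08.

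**Figure D1:**
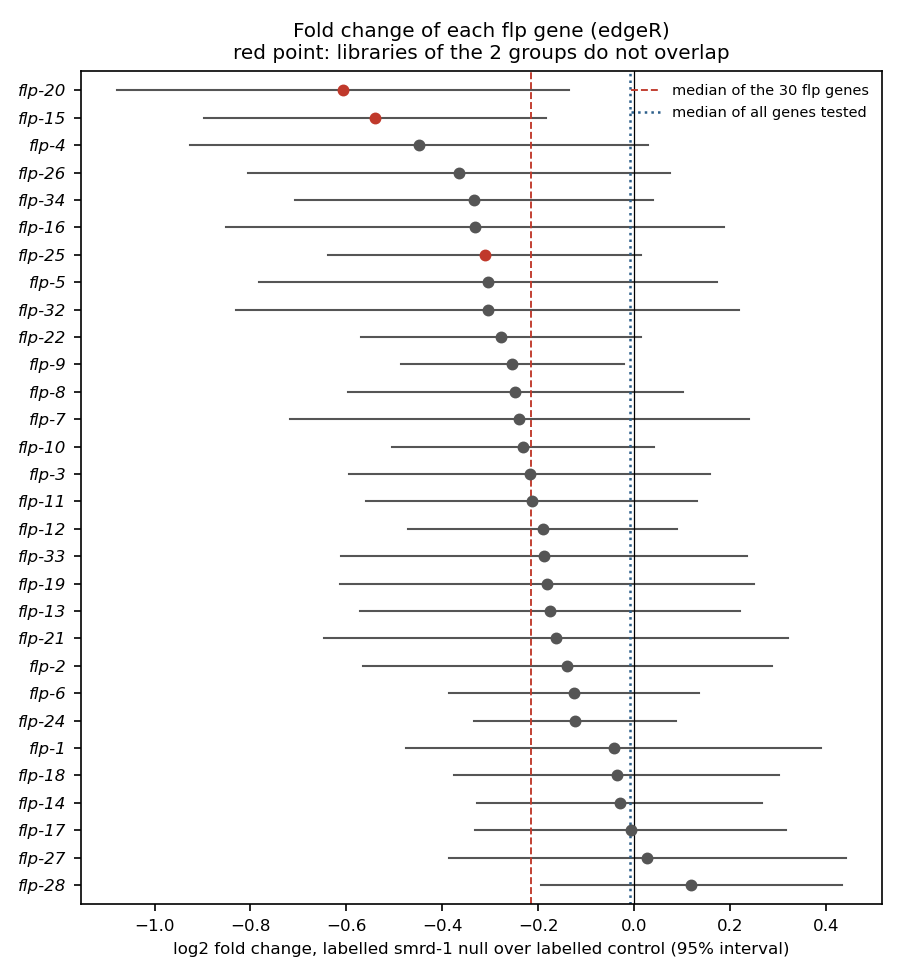
Log2 fold change (smrd1Null over Control, x axis) of each of the 30 *flp* genes (y axis) with its 95% interval from edgeR. Of the points, 28 lie below 0, and 27 intervals hold 0. Red points mark the 3 genes whose groups of libraries did not overlap.

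In 3 *flp* genes, *flp-15*, *flp-20* and *flp-25*, every smrd1Null library was below every Control library, and in none was every one above, against 2.84% of all genes tested for the lower direction and 5.2% for either. The neuropeptide gene *flp-15* encodes peptides that activate the receptor NPR-3. Its level was 10.3, 10.9, 8.27 and 11.6 CPM in smrd1Null replicates 1 to 4, against 18.04, 15.5, 12.7 and 13.4 CPM in Control replicates 1 to 4. All 4 smrd1Null libraries lay below Control replicate 3, the lowest Control library, and Control replicate 1 stood highest. For *flp-15* the log2 fold change was -0.54 with a standard error of 0.157 (adjusted p = 0.456, edgeR).

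*flp-20* is expressed in touch receptor neurons, and its peptides act through FRPR-3. Its level was 3.30, 4.93, 3.60 and 4.51 CPM in smrd1Null replicates 1 to 4, against 7.58, 7.03, 5.17 and 5.09 CPM in Control replicates 1 to 4. The groups did not overlap, but smrd1Null replicate 2 lay close to Control replicates 3 and 4, and Control replicates 1 and 2 were the highest. For *flp-20* the log2 fold change was -0.61 with a standard error of 0.207 (adjusted p = 0.568, edgeR).

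The third gene without overlap, *flp-25*, had the lowest level per length of all *flp* genes. Its level was 3.55, 3.48, 3.24 and 3.76 CPM in smrd1Null replicates 1 to 4, against 4.63, 4.10, 4.67 and 4.00 CPM in Control replicates 1 to 4. The libraries within each group lay close together and the gap between the groups was narrow. *flp-25* had a log2 fold change of -0.31 with a standard error of 0.143 (adjusted p = 0.646, edgeR).

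For *flp-9* the level was 24.2, 23.6, 20.1 and 23.0 CPM in smrd1Null replicates 1 to 4, against 29.2, 28.2, 23.4 and 27.6 CPM in Control replicates 1 to 4. Only Control replicate 3 fell within the range of the smrd1Null libraries, and smrd1Null replicate 3 was the lowest of all. *flp-9* had a log2 fold change of -0.25 with a standard error of 0.102 (adjusted p = 0.623, edgeR).

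*flp-4* had 7.69, 7.64, 5.11 and 5.97 CPM in smrd1Null replicates 1 to 4, against 10.97, 10.3, 6.70 and 8.03 CPM in Control replicates 1 to 4. Replicates 3 and 4 were below replicates 1 and 2 in both groups, and smrd1Null was below Control within replicates 1 and 2 and again within replicates 3 and 4, with overlap only between these sets. *flp-4* had a log2 fold change of -0.45 with a standard error of 0.209 (adjusted p = 0.646, edgeR).

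*flp-22* had 12.6, 12.8, 11.4 and 11.8 CPM in smrd1Null replicates 1 to 4, against 17.4, 14.5, 12.2 and 15 CPM in Control replicates 1 to 4. Control replicate 3 alone lay within the smrd1Null range, and Control replicate 1 stood highest. *flp-22* had a log2 fold change of -0.28 with a standard error of 0.128 (adjusted p = 0.646, edgeR).

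*flp-34* encodes peptides that act through NPR-11 in learned odor avoidance. It had 3.80, 4.43, 3.60 and 3.91 CPM in smrd1Null replicates 1 to 4, against 6.05, 4.64, 4.88 and 4.28 CPM in Control replicates 1 to 4. Control replicate 1 stood above the rest, and smrd1Null replicate 2 was higher than Control replicate 4, so the groups overlapped. *flp-34* had a log2 fold change of -0.33 with a standard error of 0.164 (adjusted p = 0.652, edgeR).

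**Figure D2:**
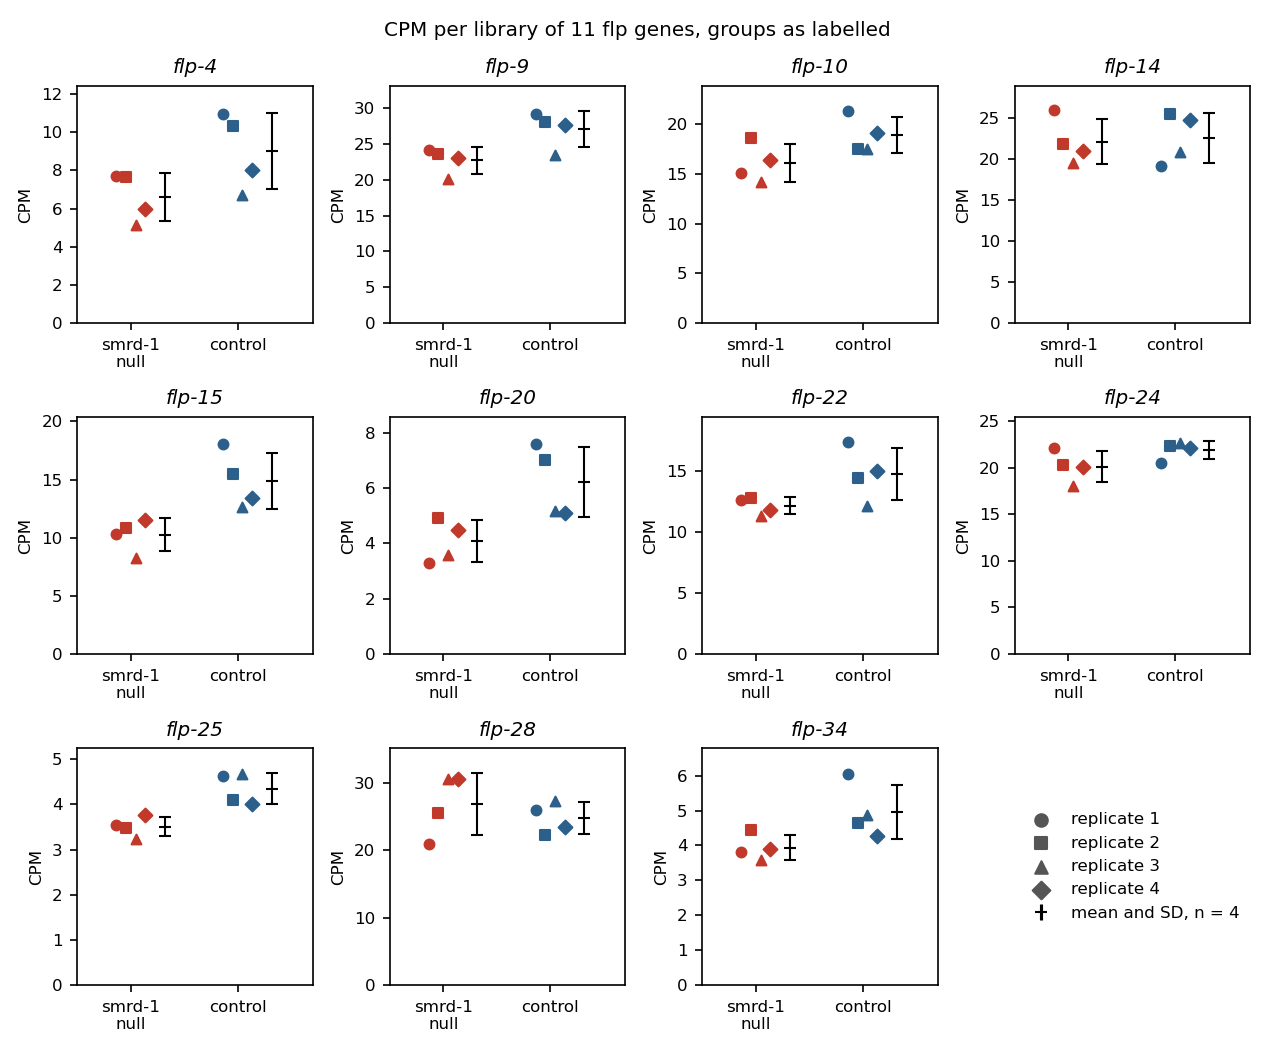
Level in CPM (y axis, from 0) of 11 *flp* genes in each library, with smrd1Null at the left and Control at the right of each panel. Point shapes give the replicate number, and the black bars are the mean and SD of the 4 libraries. Only in the panels of *flp-15*, *flp-20* and *flp-25* do the groups not overlap.

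The peptides of *flp-10* and *flp-17* both act on EGL-6, a receptor that inhibits egg laying, and *flp-17* is made in the CO2-sensing BAG neurons. *flp-10* had 15.1, 18.6, 14.2 and 16.4 CPM in smrd1Null replicates 1 to 4, against 21.3, 17.5, 17.5 and 19.2 CPM in Control replicates 1 to 4. smrd1Null replicate 2 was the one library that reached into the Control range. The log2 fold change of *flp-10* was -0.23 with a standard error of 0.12 (adjusted p = 0.656, edgeR). *flp-17* had 8.02 to 9.09 CPM in smrd1Null and 6.84 to 9.61 CPM in Control, a log2 fold change of -0.01 with a standard error of 0.142. The Control range of *flp-17* contained the whole smrd1Null range. *egl-6* itself had 1.84 ± 0.464 CPM in smrd1Null and 1.84 ± 0.206 CPM in Control (SD, n = 4 each).

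Peptides of *flp-13* and *flp-24* from the ALA neuron and of *flp-11* from the RIS neuron promote sleep. *flp-24* was among the highest *flp* messages per length, with 22.2, 20.3, 18.02 and 20.0 CPM in smrd1Null replicates 1 to 4, against 20.5, 22.3, 22.7 and 22.1 CPM in Control replicates 1 to 4. It had the tightest replicates of the family, and smrd1Null replicate 1 lay among the Control libraries. The log2 fold change of *flp-24* was -0.12 with a standard error of 0.0925 (adjusted p = 0.714, edgeR).

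*flp-11* spanned 11.8 to 15.6 CPM in smrd1Null and 14.2 to 19.6 CPM in Control, with a log2 fold change of -0.21 and a standard error of 0.151. *flp-13* spanned 6.76 to 9.91 CPM in smrd1Null and 8.28 to 11.3 CPM in Control, with a log2 fold change of -0.18 and a standard error of 0.174. In both genes Control replicate 2 was far above the other Control libraries, and the groups overlapped. *flp-2*, whose peptides promote arousal through FRPR-18, spanned 4.18 to 5.72 CPM in smrd1Null and 3.99 to 5.94 CPM in Control, with a log2 fold change of -0.14 and a standard error of 0.187.

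*flp-1*, made by the AVK neurons and needed for normal locomotion, had 24.9, 24.4, 18.1 and 23.6 CPM in smrd1Null replicates 1 to 4, against 16.5, 29.8, 21.3 and 26.2 CPM in Control replicates 1 to 4. Control replicates 1 and 2 were the lowest and the highest of all 8 libraries, and the log2 fold change of -0.04 had a standard error of 0.19. *flp-18* and *flp-21* encode ligands of NPR-1, the receptor that sets whether worms aggregate on food, and *flp-18* peptides also activate NPR-4 and NPR-5. *flp-18* spanned 13.5 to 16.7 CPM in smrd1Null and 12.6 to 18.3 CPM in Control, with a log2 fold change of -0.04 and a standard error of 0.149. *flp-21* spanned 3.39 to 5.34 CPM in smrd1Null and 3.88 to 6.04 CPM in Control, with a log2 fold change of -0.16 and a standard error of 0.212. The ranges overlapped in all 3 genes.

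*flp-7* peptides from the ASI neurons promote fat loss through NPR-22, *flp-3* acts through NPR-10 in the response of males to pheromone, and *flp-8* and *flp-12*, with *flp-10* and *flp-20*, limit turning during male mating. *flp-7* spanned 6.96 to 11.9 CPM in smrd1Null and 8.73 to 14.6 CPM in Control (log2 fold change -0.24, standard error 0.21). *flp-3* spanned 6.65 to 9.05 CPM in smrd1Null and 7.48 to 11.2 CPM in Control (log2 fold change -0.22, standard error 0.165). Every one of these genes overlapped between the groups except *flp-20*. *flp-8* spanned 6.51 to 7.94 CPM in smrd1Null and 7.15 to 10.2 CPM in Control (log2 fold change -0.25, standard error 0.154). *flp-12* spanned 9.76 to 11.9 CPM in smrd1Null and 10.9 to 14.1 CPM in Control (log2 fold change -0.19, standard error 0.123).

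*flp-28* and *flp-27* were the only genes of the family above 0. *flp-28* had 20.97, 25.5, 30.5 and 30.5 CPM in smrd1Null replicates 1 to 4, against 26.0, 22.2, 27.3 and 23.4 CPM in Control replicates 1 to 4. smrd1Null replicates 3 and 4 were above every other library and smrd1Null replicate 1 below every other. The log2 fold change of *flp-28* was 0.12 with a standard error of 0.138 (adjusted p = 0.789, edgeR). It was 0.22 without smrd1Null replicate 1, 0.042 without smrd1Null replicate 3, 0.044 without smrd1Null replicate 4, 0.07 without Control replicate 2, and 0.25 with libraries scaled on the pan-neuronal list. *flp-27* spanned 4.64 to 5.92 CPM in smrd1Null and 4.27 to 6.44 CPM in Control, with a log2 fold change of 0.03 and a standard error of 0.182.

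*flp-14* had 25.9, 21.8, 19.5 and 20.996 CPM in smrd1Null replicates 1 to 4, against 19.1, 25.4, 20.9 and 24.7 CPM in Control replicates 1 to 4. The highest library was smrd1Null replicate 1 and the lowest Control replicate 1, with full overlap between the groups. The log2 fold change of *flp-14* was -0.03 with a standard error of 0.13, and it was 0.08 with libraries scaled on the pan-neuronal list. The remaining 7 genes, *flp-5*, *flp-6*, *flp-16*, *flp-19*, *flp-26*, *flp-32* and *flp-33*, overlapped between the groups and had log2 fold changes between -0.37 for *flp-26* and -0.13 for *flp-6*, with standard errors between 0.115 for *flp-6* and 0.23 for *flp-32*. Among these 7, *flp-16* had the widest spread between replicates, with 10.6 to 15.04 CPM in smrd1Null and 12.2 to 22.3 CPM in Control.

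Levels per length were compared as CPM per kilobase of exon, since longer messages give more reads. Over the 8 libraries the family spanned 7.72-fold on this scale, with a median of 12.99 CPM per kilobase. *flp-28* averaged 49.1 ± 8.38 CPM per kilobase in smrd1Null and 45.2 ± 4.32 in Control, *flp-24* 45.1 ± 3.8 in smrd1Null and 49.1 ± 2.2 in Control, and *flp-14* 46.2 ± 5.73 in smrd1Null and 47.2 ± 6.36 in Control (SD, n = 4 each). The order of these 3 changed between the groups and their differences were smaller than the spread between libraries. *flp-9* followed with 35.9 ± 2.92 CPM per kilobase in smrd1Null and 42.8 ± 4 in Control, and *flp-1* with 33.1 ± 4.59 in smrd1Null and 34.1 ± 8.47 in Control, a pair of neighbors within 1 SD of each other in smrd1Null.

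At the low end, *flp-32* averaged 6.07 ± 1.4 CPM per kilobase in smrd1Null and 7.51 ± 1.47 in Control. *flp-34* averaged 5.49 ± 0.5 in smrd1Null and 6.93 ± 1.07 in Control, and *flp-25* 5.45 ± 0.335 in smrd1Null and 6.77 ± 0.54 in Control. These 3 did not differ from each other beyond their spread. Even the least abundant messages were well covered, with 164 to 2450 counts per *flp* gene and library, over exon lengths of 422 to 1013 bases.

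**Figure D3:**
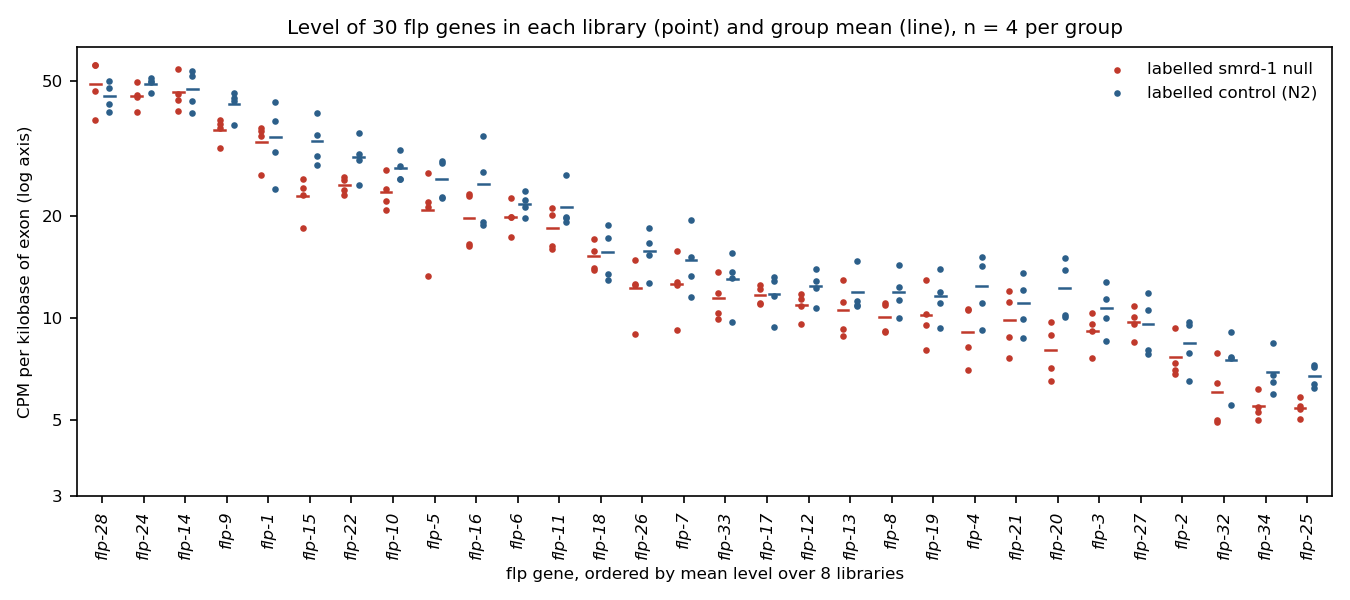
Level in CPM per kilobase of exon (y axis, log scale) of the 30 *flp* genes (x axis, ordered by their mean over 8 libraries) in each library (points), with group means as lines, smrd1Null left of Control for each gene. The levels run from 47.2 for *flp-28* to 6.11 for *flp-25*, and the points of both groups overlap in all genes but 3.

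Replicate spread was of the same order as the differences. The SD of log2 CPM within groups was 0.22 at the median gene, 0.0981 for *flp-24* and 0.356 for *flp-16*, and in 13 of 30 genes the log2 fold change was larger than this SD. Summed over the 30 genes, the level was 347.8, 341.2, 288.2 and 326.2 CPM in smrd1Null replicates 1 to 4, against 371.2, 399.3, 338.4 and 368.4 CPM in Control replicates 1 to 4. smrd1Null replicate 3 was the lowest and Control replicate 2 the highest, and smrd1Null replicates 1 and 2 were above Control replicate 3. The sum averaged 326 ± 26.7 CPM in smrd1Null and 369 ± 24.9 CPM in Control (SD, n = 4 each). smrd1Null replicate 3 was the lowest of the 8 libraries for 18 of 30 *flp* genes, against 23.0% of all genes tested. Control replicate 2 was the highest for 12 of 30, against 20.9% of all genes, and Control replicate 1 for 11 of 30, against 14.3%.

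The comparison was repeated on either side of the division of the replicates. Within replicates 1 and 2, 24 of 30 *flp* genes were lower in smrd1Null, with a median log2 difference of -0.15. Within replicates 3 and 4, 29 of 30 were lower, with a median of -0.25, and 23 genes were lower within both. Of the 4 pairs of libraries with the same number, 11 genes were lower in smrd1Null in all 4 pairs and 16 in 3 pairs. The shares of all genes tested for these counts within sides and pairs were not computed, so the counts cannot be called particular to the *flp* genes. With a term for this division, edgeR called 2 of 30 *flp* genes, *flp-4* (log2 fold change -0.44, adjusted p = 0.0454) and *flp-15* (-0.53, adjusted p = 0.0474), both lower, against 5.53% of all genes (929). That fit had 9 *flp* genes at an unadjusted p under 0.05, against 26.9% of all genes. The division was read from these same values, so the p-values and calls of this fit, here and below, do not allow for that choice.

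**Figure D4:**
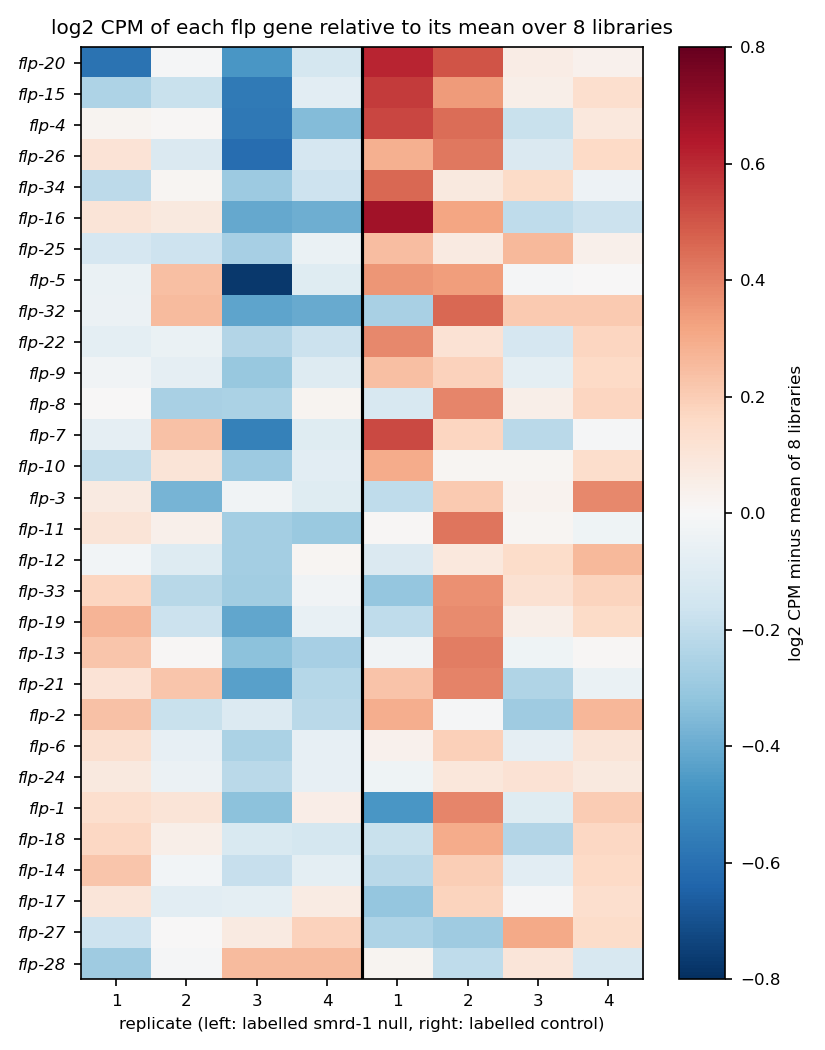
Log2 CPM of each *flp* gene (rows, ordered by log2 fold change) in each library (columns, smrd1Null replicates 1 to 4 left of the line and Control replicates 1 to 4 right of it) minus the mean of the gene over 8 libraries, in color from blue (below) to red (above). smrd1Null replicate 3 is the lowest library for 18 of 30 genes. Control replicate 2 is the highest for 12 and Control replicate 1 for 11.

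The chromosomal positions, in the WBcel235 build, placed 13 of 30 *flp* genes on chromosome X, or 43.3%, where 14.3% of all genes tested lie. The others were spread as 5 on IV, 4 on III, 3 each on II and V and 2 on I. Genes of chromosome X as a whole had a median log2 fold change of -0.12, with 68.7% below 0. The *flp* genes on X had a median of -0.22 (12 of 13 below 0), and those on other chromosomes -0.19 (16 of 17 below 0). *flp-15* lies on chromosome III from 13663400 to 13667839, *flp-20* on X from 9349276 to 9349894, and *flp-25* on III from 9361528 to 9365380.

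Counting did not use strand, so reads of a *flp* gene and of a gene on the opposite strand at the same bases cannot be told apart. Of the 30 genes, 9 overlap a protein-coding gene on the opposite strand, and 6 share exon bases with any other gene, at most 21 bases. *flp-2*, *flp-3* and *flp-28* lie close together on chromosome X within W07E11.1, whose exons share no base with theirs, and *flp-27* lies within C25H3.11. The host W07E11.1 had a log2 fold change of 0.13 with a standard error of 0.121 (adjusted p = 0.742, edgeR), and C25H3.11 of -0.01 with a standard error of 0.0645. Both *flp* genes above 0, *flp-27* and *flp-28*, are among these nested genes, and a part of unspliced host reads in their values was not tested. The 21 *flp* genes that overlap no protein-coding gene were all below 0, with a median of -0.25. Of the 9 that overlap one, all but *flp-27* and *flp-28* were also below 0. These include *flp-2* (-0.14) and *flp-3* (-0.22), which lie within the same host as *flp-28*.

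The enzymes that make the peptides were near the *flp* genes in size of difference. Of 13 genes for processing and breakdown of peptides, 11 were below 0, the median log2 fold change was -0.18, and edgeR without a covariate called 0, with 0 at an unadjusted p under 0.05. DESeq2 also called 0, while the edgeR fit with the division term called 1, *egl-3*, lower (adjusted p = 0.0412). Of all genes tested, that edgeR fit called 5.53%. *egl-3* had 88 ± 22.7 CPM in smrd1Null and 104.1 ± 17.8 CPM in Control (log2 fold change -0.24, standard error 0.196), and *egl-21* had 89 ± 13.1 CPM in smrd1Null and 102 ± 13 CPM in Control (-0.20, standard error 0.133; SD, n = 4 each). Of 10 dense core vesicle genes, 8 were below 0 with a median of -0.07, 0 were called by edgeR, with or without the division term, or by DESeq2, and 0 had an unadjusted p under 0.05 in edgeR without that term. *unc-31* had 14.1 ± 2.44 CPM in smrd1Null and 16.3 ± 3.34 CPM in Control (log2 fold change -0.21, standard error 0.184; SD, n = 4 each).

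Receptor genes of the families npr, frpr and dmsr, with *egl-6*, numbered 80, of which 73 were tested and 58 were below 0. Their median log2 fold change was -0.26, 0 were called by edgeR without a covariate, and 6 had an unadjusted p under 0.05, a share near the 7.74% over all genes. The fit with the division term called *dmsr-1* and *npr-5* lower (adjusted p = 0.0324 for each, edgeR), and DESeq2 called 1 receptor, *npr-43*, lower. Of all genes tested, the fit with the division term called 5.53% and DESeq2 1.34%. The 7 genes left out by the filter were dmsr genes, and 1 of them, *dmsr-15*, had no counts in any library. Of the 13 receptors with a known *flp* ligand, 11 were below 0 with a median of -0.33. Among these 13, *frpr-4*, a receptor for *flp-13* peptides, had the smallest p, with 3.07, 3.13, 1.34 and 2.34 CPM in smrd1Null replicates 1 to 4, against 4.85, 3.30, 3.57 and 3.77 CPM in Control replicates 1 to 4. Its groups did not overlap, with smrd1Null replicate 3 far below the rest (log2 fold change -0.65, standard error 0.284, adjusted p = 0.639, edgeR). The other *flp-13* receptor, *dmsr-1*, had 8.24 ± 2.14 CPM in smrd1Null and 11.3 ± 2.69 CPM in Control (log2 fold change -0.46, standard error 0.233; SD, n = 4 each). *npr-5* had 13.9 ± 2.87 CPM in smrd1Null and 18.2 ± 4.05 CPM in Control (-0.39, standard error 0.202; SD, n = 4 each), and *npr-3*, the receptor of *flp-15*, 1.75 ± 0.608 CPM in smrd1Null and 1.94 ± 0.238 CPM in Control (-0.14, standard error 0.272).

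The receptors with the smallest p over all 73 were low in level. *npr-43* had 0.633, 0.753, 0.694 and 0.797 CPM in smrd1Null replicates 1 to 4, against 1.47, 1.05, 1.06 and 1.19 CPM in Control replicates 1 to 4 (log2 fold change -0.73, standard error 0.216, adjusted p = 0.477, edgeR). *dmsr-4* had 0.66, 0.739, 0.719 and 0.448 CPM in smrd1Null replicates 1 to 4, against 1.30, 1.26, 0.935 and 1.03 CPM in Control replicates 1 to 4 (-0.82, standard error 0.251, adjusted p = 0.508, edgeR). The groups did not overlap in either gene, both lower in smrd1Null. *npr-18* had 1.36, 1.04, 1.28 and 1.12 CPM in smrd1Null replicates 1 to 4, against 0.686, 0.913, 0.675 and 0.914 CPM in Control replicates 1 to 4, without overlap and higher in smrd1Null (0.59, standard error 0.221, adjusted p = 0.598, edgeR).

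Genes used by all neurons had differences of a like size, as did the muscle, intestine and hypodermis marker genes. In whole animals, fewer neurons, less RNA per neuron and a larger share of RNA from other tissues cannot be told apart. Of 15 pan-neuronal genes, 11 were below 0, the median log2 fold change was -0.19, 0 were called by edgeR with or without the division term, 1 (*ric-19*) had an unadjusted p under 0.05, and none was at 0 counts in every library. Their summed level was 484 to 592 CPM over the smrd1Null libraries and 537 to 628 CPM over the Control libraries. *ric-19*, which acts in dense core vesicle maturation, stood apart with 6.29, 5.93, 4.89 and 5.75 CPM in smrd1Null replicates 1 to 4, against 4.25, 4.03, 4.03 and 4.28 CPM in Control replicates 1 to 4, every smrd1Null library being the higher (log2 fold change 0.46, standard error 0.139, adjusted p = 0.487, edgeR). DESeq2 called it higher (adjusted p = 0.00752), against 1.34% of all genes that DESeq2 tested. With libraries scaled on this list, the median log2 fold change was -0.10 for the 30 *flp* genes and 0.11 for all genes tested, *flp-1*, *flp-14*, *flp-17* and *flp-18* were above 0 beside *flp-27* and *flp-28*, and 0 of 30 were called (0.113% of all genes), with 2 at an unadjusted p under 0.05 (7.59% of all genes). That scaling called 19 genes in the whole table, 13 higher and 6 lower. It equalized the summed counts of the list, so single genes of the list need not lie at 0 under it.

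Markers of other tissues also differed in level, and their part in the *flp* values was not tested. The median log2 fold change was -0.18 over 5 body wall muscle genes (5 below 0), -0.13 over 4 pharynx muscle genes (4 below 0), -0.26 over 5 intestine genes (4 below 0) and -0.29 over 3 hypodermis genes (3 below 0). It was 0.17 over 5 germline genes (5 above 0), 0.50 over 31 major sperm protein genes (29 above 0) and 1.60 over 6 yolk protein genes (6 above 0). Summed germline levels were 1348 to 1588 CPM in smrd1Null and 1189 to 1336 CPM in Control, sperm levels 1126 to 2951 CPM in smrd1Null and 857 to 1925 CPM in Control, and yolk levels 6583 to 18352 CPM in smrd1Null and 2249 to 6596 CPM in Control. Summed levels were 5027 to 10312 CPM in smrd1Null and 6489 to 10584 CPM in Control for body wall muscle, and 1278 to 2341 CPM in smrd1Null and 1531 to 2915 CPM in Control for the intestine. They were 288 to 813 CPM in smrd1Null and 328 to 961 CPM in Control for pharynx muscle, and 389 to 641 CPM in smrd1Null and 403 to 867 CPM in Control for the hypodermis. The sums of these 4 tissues overlapped between the groups. The germline sums did not overlap between the groups, the sperm sums overlapped, and the yolk sums overlapped by a narrow margin. edgeR without a covariate called none of these markers, while 6 of 6 yolk, 1 of 31 sperm and 1 of 5 germline genes had an unadjusted p under 0.05, and none was at 0 in every library. The fit with the division term called 7 sperm and 2 yolk genes (*vit-3* and *vit-4*) higher, and *hlh-1* of body wall muscle, *act-5* of the intestine and *elt-3* of the hypodermis lower. DESeq2 called 3 yolk genes, *vit-3*, *vit-4* and *vit-5*, higher. Of all genes tested, the fit with the division term called 5.53% and DESeq2 1.34%.

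**Figure D5:**
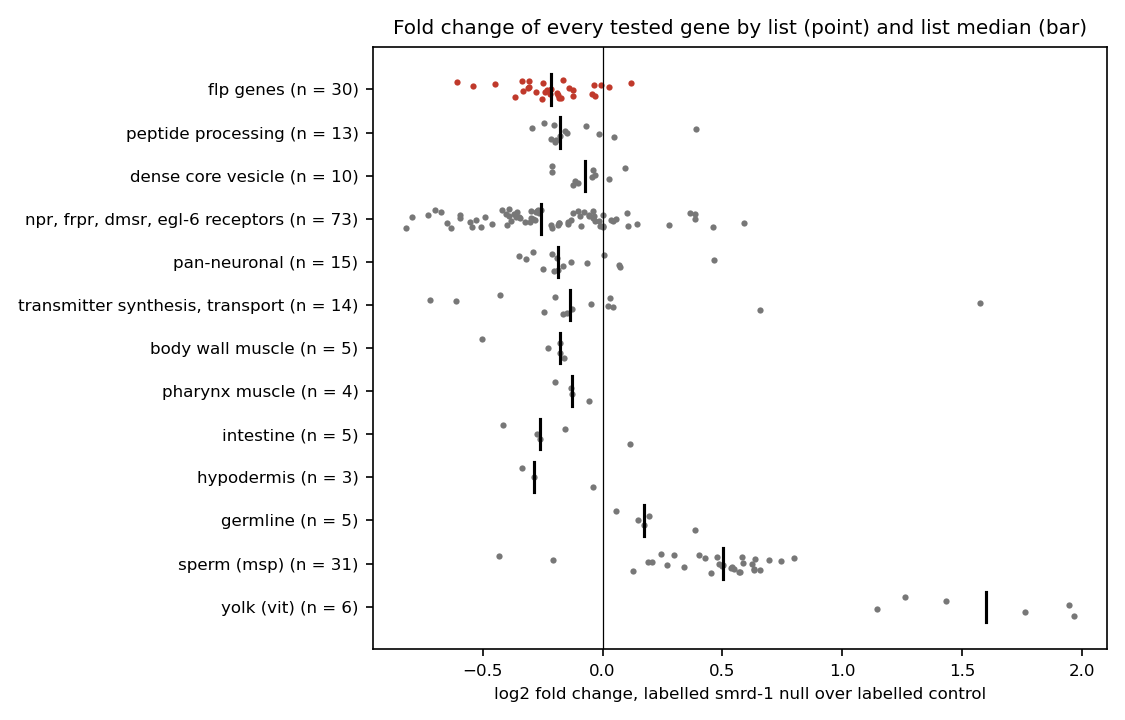
Log2 fold change (smrd1Null over Control, x axis) of every tested gene of 13 lists (points) with the median of each list (bar). The 30 *flp* genes in red have a median of -0.22, near the processing (-0.18), receptor (-0.26) and pan-neuronal (-0.19) lists and as near the body wall muscle (-0.18), intestine (-0.26) and hypodermis (-0.29) lists, while the germline (0.17), sperm (0.50) and yolk (1.60) lists lie above 0.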

How the data were processed

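Polyadenylated RNA of whole animals was measured in 4 libraries labelled smrd1Null and 4 labelled Control. The authors aligned reads of 150 bases to WBcel235 with STAR 2.7.11b and counted them on genes with featureCounts 2.0.1. Raw counts, not normalized, are what the deposited table gives for each of 46926 genes. The count command in its header sets neither a strand nor a read pair option, so mates were counted singly, and it names annotation release 112, whereas the methods name release 113. Reads with several mapping places were not counted. Total counts were 74704022 to 78008833 per library. The authors also deposited a DESeq2 table with their own comparison (mean level, fold change and its error, test score, p-values), from which only gene identifiers and names were used here. Positions came from annotation release 115, in which all 30 genes have the same span as in the count table.

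The counts were tested in edgeR 4.0.16 (R 4.3.3, limma 3.58.1) with TMM scaling, filterByExpr by group, the quasi-likelihood test without covariates and Benjamini-Hochberg adjustment over 16808 genes, called at an adjusted p of at most 0.05. Standard errors are the size of the log2 fold change over the square root of F. DESeq2 1.42.0, other size factors, filters of at least 1 count in total or of 10 counts per library, a block by replicate number, a term for replicates 1 and 2 against 3 and 4, scaling on pan-neuronal genes and leaving out each library were alternatives. Tables and figures were made with Python 3.11.15, numpy 2.4.6, pandas 2.3.3, scipy 1.17.1 and matplotlib 3.10.9. The test scripts were tried on simulated data.

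The members, the gene lists, the tests and the division of the replicates were chosen with earlier results of these data known. Values in full are given for the 4 *flp* genes highest per length, the 8 with the smallest p and those without overlap, and for up to 3 genes of each processing, vesicle, receptor, pan-neuronal or transmitter list with the smallest unadjusted p under 0.05. Other genes named, such as *flp-1*, *frpr-4* and the hosts, were chosen after their values were seen. Same-numbered smrd1Null and Control libraries deviated together, with correlations across genes of 0.357, 0.221, 0.489 and 0.39 for replicates 1 to 4, so the numbers were treated as pairing the samples in the block. The labels give no source for such a pairing, and other libraries on the same side of the division correlated as well (up to 0.516). No sequences were printed, since none were used here.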

Additional observations from a re-analysis of the deposited data

Results flagged for a closer look

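The levels of the *flp* genes and of *smrd-1* were searched for a library far from the other 3 of its group, in 62 sets of 4 libraries. In all, 2 were found. Chance gives about 1 in 20, so 2 of 62 is no more than chance gives. For *flp-11*, a sleep-promoting peptide gene of the RIS neuron, Control replicate 2 had 19.6 CPM, while the other Control libraries had 14.2 to 14.7 CPM. For *flp-13*, a sleep-promoting peptide gene of the ALA neuron, Control replicate 2 had 11.3 CPM, while the other Control libraries had 8.28 to 8.54 CPM. The same library had the highest level of 12 of the 30 *flp* genes, against 20.9% of all genes, and Control replicate 1 of 11, against 14.3%. Without Control replicate 2, 25 of 30 *flp* genes were below 0, against 49.5% of all genes tested. Their median log2 fold change was then -0.18, and that of all genes tested 0.002. Without smrd1Null replicate 3, the lowest library for 18 of 30 *flp* genes, 25 of 30 were below 0, against 53.0% of all genes. The family median was then -0.15, the smallest shift of the fits with a single library left out, and that of all genes tested -0.013.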

How the results depend on the processing

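In the whole table edgeR called 26 genes, DESeq2 275 and the fit with a term for replicates 1 and 2 against 3 and 4 929, and leaving out any single library gave 7 to 14. The cause of the higher counts was not tested. No *flp* gene was called in any fit but that with the division term, which called 2. Leaving out single libraries kept the count of *flp* genes called at 0, gave 3 to 7 *flp* genes without overlap (all lower, against 3.71% to 5.5% of all genes: 5 against 3.86% without Control replicate 1, 7 against 5.5% without Control replicate 3, 5 against 4.71% without smrd1Null replicate 1 and 6 against 4.25% without smrd1Null replicate 2, where all 8 libraries gave 3 against 2.84%), a median log2 fold change of the family of -0.28 to -0.15, and 24 to 29 genes below 0. Of all genes tested, 49.5% to 53.0% were below 0 in the fits with a single library left out. In the same fits *smrd-1* had a log2 fold change of 0.77 to 0.85, with an adjusted p of 0.0574 (edgeR) without smrd1Null replicate 1. *flp-14* had a log2 fold change of 0.076 with scaling on the pan-neuronal list, and of -0.12 to 0.032 over the single libraries left out. With the replicate block, edgeR called 26 genes in the whole table, of which 14 were shared with the fit without the block, and 0 *flp* genes, with 8 of 30 at an unadjusted p under 0.05 (23.0% of all genes), a median of -0.21 and 27 genes below 0. The block changed no call of *smrd-1* or of a *flp* gene, and none of *npr-43*, *dmsr-4*, *npr-18*, *ric-19*, *tbh-1* or *tdc-1*. Size factors and filters left the *flp* counts as reported. The 95% intervals of 29 of 30 *flp* genes lie between -1 and 1 on the log2 scale. Of the 30 intervals, which are not adjusted for the number of genes, 27 hold 0 and 3 lie below 0, against 3.84% of all genes. The size of a difference could not be resolved more finely than its interval with 4 libraries a group.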

Other observations

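Among 14 genes for making and moving small transmitters, 9 were below 0, the median log2 fold change was -0.14, 0 were called by edgeR without a covariate or by DESeq2, and 2 had an unadjusted p under 0.05, both higher in smrd1Null. *tdc-1*, the tyrosine decarboxylase of tyramine synthesis, had 29.5, 37.5, 58.2 and 48.0 CPM in smrd1Null replicates 1 to 4, against 27.1, 19.8, 36.2 and 26.7 CPM in Control replicates 1 to 4. The groups overlapped through Control replicate 3 (log2 fold change 0.66, standard error 0.239, adjusted p = 0.593, edgeR), and with the term for the division of the replicates it was called higher (adjusted p = 0.0468). That fit also called *snf-11*, a GABA transporter, lower (log2 fold change -0.44, adjusted p = 0.0456, edgeR). Of all genes tested, the same fit called 5.53%. *tbh-1*, which turns tyramine into octopamine, had 18.97, 23.4, 67.6 and 44.6 CPM in smrd1Null replicates 1 to 4, against 14.4, 4.74, 23.7 and 9.07 CPM in Control replicates 1 to 4 (1.57, standard error 0.547, adjusted p = 0.576, edgeR). smrd1Null replicates 3 and 4 were the highest and Control replicate 2 the lowest. Both genes are known from gonadal sheath cells as well as from neurons. DESeq2 gave an adjusted p of 0.0454 for *npr-43*, which edgeR did not call.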
